A study of Mus musculus with 10 samples.

Results

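The cytosolic ribosome is built from ribosomal RNA and a fixed set of ribosomal proteins, those of the large subunit named Rpl and those of the small subunit named Rps. The subunits need their proteins in matched amounts, and the genes are transcribed in every dividing cell, which makes their promoters a housekeeping reference for chromatin accessibility. Many of these promoters lack a TATA box and start transcription inside a run of pyrimidines, the terminal oligopyrimidine tract, which also ties translation of the messenger RNA to growth signals. Members were the protein-coding genes of GENCODE on GRCm38 whose symbol is Rpl or Rps with a number and at most 1 closing letter a, l or x, together with Rplp0, Rplp1, Rplp2 and Rpsa. The rule used names alone and gave 80 genes of 21911, with 49 for the large and 31 for the small subunit.

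ATAC-seq uses a transposase to cut and tag exposed DNA, and was applied here to neural stem cell cultures derived from the subependymal zone of mice aged 10 weeks. The 4 groups were WT and p27KO cells, each proliferating (PRO) or at the onset of differentiation (DIFF), with 3 WT libraries and 2 p27KO libraries per condition and 50000 cells in each library. The p27KO mice carry a mutation of Cdkn1b, the gene of the cell cycle inhibitor p27. PRO cells were free-floating neurospheres kept with EGF at 20 ng/ml and FGF at 10 ng/ml, for 3 days by the labels, while the text of the study also names a longer culture. For DIFF, 40000 cells per cm2 were plated on Matrigel with FGF for 2 days, then left for 24 h in medium lacking mitogens and holding 2% fetal bovine serum. Substrate, serum and mitogens therefore changed together and cannot be told apart. The labels do not say whether replicates came from separate animals, so p-values measure the spread between these libraries, which may be technical.

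Each library came as 1 list of peaks, of 57534 to 91801 peaks. Read totals are not part of these lists. The number of fragments stacked at a summit, worked out from the deposited fold enrichment and p-value, had a median of 62.5 to 115 over the members of a library, on a genome-wide background of 2.52 to 3.72. WT DIFF replicate 3 stood apart from its group, with 88738 peaks against 61783 and 57534. Peaks at the start of Cdkn1b checked the labels, since free text of the p27KO libraries names WT cells: fold enrichment was 8.84 to 12.3 in the 6 WT libraries, 2.87 and 4.41 in p27KO PRO, and no peak was listed in p27KO DIFF. Starts of the Y-linked genes Ddx3y, Eif2s3y, Uty and Kdm5d held a peak in 6 of 6 WT and in 0 of 4 p27KO libraries, so genotype and this difference cannot be told apart. Of 12 neural stem cell marker genes, 10 had a peak at the start in all 10 libraries. Of 8 microglia markers, 6 had no peak in any library, among them Csf1r, Cx3cr1, Aif1 and Ptprc, while the summed fold enrichment of the list ran from 17.2 to 23.3 in PRO and from 6.11 to 14.0 in DIFF, all of it from P2ry12 and Tmem119. Of 8 endothelial markers 5 had no peak in any library, among them Pecam1 and Cdh5, and the summed fold enrichment was 18.0 to 24.0 in WT PRO, 12.96 to 14.2 in WT DIFF, 17.7 to 19.5 in p27KO PRO and 15.3 to 19.6 in p27KO DIFF. The part of these differences in the results for ribosomal protein genes was not tested. These are bulk nuclei, so a change in the share of cells with an open promoter and a change in each cell cannot be told apart.

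RefSeq promoter windows of GRCm38.p6, from 250 bases before to 50 after a transcription start, were found for 60 of the 80 members, as 72 windows. The letters CCGGAAG, a core bound by ETS factors including GABP, stood in 26 of the 72 member windows (36.1%) and in 8.86% of all 32851 windows of the same length. The YY1 core ATGGCG, which shares its first letters with any start codon, stood in 22 (30.6%) against 8.93%. GGGCGG, the SP and KLF core, was in 42 (58.3%) against 35.7%. A run of 8 or more C or T on the sense strand within 20 bases of the start was in 30 (41.7%) against 16.0%. TATAAA was in 6 (8.33%) against 13.6%, the E-box CACGTG in 8 (11.1%) against 7.15%, and the NRF1 core GCATGCGC in 3 (4.17%) against 2.71%. All but the pyrimidine run were searched on both strands, and none of these motifs contains another, although neighbours can share bases. Median GC content was 57.8% in the member windows and 52.7% in all. Some members have several overlapping windows, so 1 match can be counted more than once. By gene, the ETS core was in 25 of 60 members, the YY1 core in 19, the SP core in 36 and the pyrimidine run in 29. The comparison windows were not limited to promoters with a peak. These are matches of letters and were set against no test.

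The stretches below run from 100 bases before to 20 after a RefSeq start, 5′ to 3′ along the gene, with the motifs above and the pyrimidine run in capitals. Rps26, Rpl15 and Rpl31 are shown because they were among the members with the highest fold enrichment, and Rpl19 and Rpl4 because they were among the lowest. Rps10 is shown because the peak at its upstream start was listed in PRO alone. Its stretch is that of the downstream RefSeq start, 1425 bp along the gene. Rpl12 is shown because its difference between conditions was among the largest in both genotypes, although no such difference passed the main test.
Rps26 (chr10:128626487-128626606, minus strand): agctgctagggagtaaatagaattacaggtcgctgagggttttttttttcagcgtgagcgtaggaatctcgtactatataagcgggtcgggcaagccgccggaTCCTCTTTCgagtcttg
Rpl15 (chr14:18270967-18271086, minus strand): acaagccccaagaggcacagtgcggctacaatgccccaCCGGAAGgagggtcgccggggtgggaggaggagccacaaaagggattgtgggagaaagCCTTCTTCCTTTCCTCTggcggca
Rpl31 (chr1:39367751-39367870, plus strand): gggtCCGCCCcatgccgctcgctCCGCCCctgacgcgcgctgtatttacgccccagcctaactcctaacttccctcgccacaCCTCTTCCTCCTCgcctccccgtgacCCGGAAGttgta
Rpl19 (chr11:98026610-98026729, plus strand): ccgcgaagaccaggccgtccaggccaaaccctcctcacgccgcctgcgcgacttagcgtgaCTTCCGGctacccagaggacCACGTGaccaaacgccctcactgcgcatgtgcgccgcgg
Rpl4 (chr9:64173287-64173406, plus strand): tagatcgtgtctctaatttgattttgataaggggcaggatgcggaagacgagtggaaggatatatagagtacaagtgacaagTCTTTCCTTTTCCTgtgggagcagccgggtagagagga
Rps10 (chr17:27635225-27635344, minus strand): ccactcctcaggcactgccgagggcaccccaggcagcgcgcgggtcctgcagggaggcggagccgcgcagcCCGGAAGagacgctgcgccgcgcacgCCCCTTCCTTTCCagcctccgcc
Rpl12 (chr2:32961612-32961731, plus strand): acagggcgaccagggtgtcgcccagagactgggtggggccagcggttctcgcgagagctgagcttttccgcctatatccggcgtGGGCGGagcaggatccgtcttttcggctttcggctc
The capitals of Rps26 and Rpl4 mark only a pyrimidine run, those of Rpl15 and Rps10 an ETS core and such a run, and those of Rpl31 both of these and the SP core on 2 occasions. Rpl19 shows an ETS core and an E-box, and Rpl12 an SP core with no run of this length. Of 2 windows of Rpl19, the one at the gene start is shown. High and low members did not separate by any single one of these motifs among the sequences shown, not all of which hold the summit.

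Nearly every ribosomal protein gene had an open promoter in every library. A peak with its summit within 1 kb of the gene start was present in all 10 libraries for 73 of the 80 members, 45 of 49 for the large subunit and 28 of 31 for the small. Per library the share was 91.25 to 93.75% of members and 57.1 to 61.3% of other protein-coding genes. Other basic machinery was as complete: 75 of 78 mitochondrial ribosomal protein genes, 39 of 40 ribosome biogenesis genes, 37 of 40 translation factor genes and 30 of 31 proteasome genes had a peak in all 10. Counting a peak at any annotated transcript start of the gene raised the members to 77 of 80.

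The 3 members with no peak at any start were Rpl3l, Rpl10l and Rpl39l, paralogs of Rpl3, Rpl10 and Rpl39 known for expression in muscle or testis. From the start of Rpl3l the nearest summit lay 3298 to 3423 bp upstream in the 10 libraries. At Rpl39l it lay 22621 to 22643 bp downstream. The nearest summit of Rpl10l was 5211 bp away in 1 library and up to 55018 bp in another, with no position shared by all. Absence from a list means that no peak was called at the depth of that library. Their broadly used relatives were open in all 10 libraries, with mean fold enrichments at the best start of 9.77 ± 1.57 for Rpl3 (SD, n = 10), 11.6 ± 1.34 for Rpl10 and 12.9 ± 1.62 for Rpl39.

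The other 4 incomplete members, Rpl17, Rps2, Rps14 and Rps10, differed in which start the annotation puts first. GENCODE counts a gene from its most upstream transcript, and in these genes the peak stood at a start further down. Rps2, a small subunit protein near the mRNA entry site, had its nearest summit 1830 to 1926 bp downstream of the gene start, next to a RefSeq start 1947 bp downstream. Rpl17 had its nearest summit 1932 to 1991 bp downstream. Rps14 had a summit inside the 1 kb limit in 2 libraries, WT PRO replicate 1 with fold enrichment 5.28 and WT DIFF replicate 1 with 3.51. These summits lay 966 and 761 bp from the start, and the nearest in the other 8 libraries lay at 1182 to 1549 bp. In WT PRO replicate 1 the summit was also within 1 kb of the start of Ndst1. A separate peak stood in every library at the further starts of Rps14, which begin 27498 bp along the gene, with a summit 4 to 60 bp from an annotated start. At any annotated start all of these genes had a peak in all 10 libraries, with mean within-list percentiles of fold enrichment of 78.0 for Rpl17, 82.2 for Rps2 and 89.7 for Rps14.

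Rps10 was the 1 member whose presence followed the culture condition. This gene of the small subunit (chr17:27630418-27636669, minus strand) had a peak at its upstream start in 5 of 5 PRO libraries and in 0 of 5 DIFF libraries. Fold enrichment there was 4.51, 3.84 and 3.92 in WT PRO and 4.50 and 4.78 in p27KO PRO, with 23 to 28 fragments at the summit and widths of 162 to 527 bp. These were weak peaks, at percentiles of 20.3 to 41.5 within their lists. The part of library depth in this pattern was not tested. Of 14285 genes with a peak in at least 1 library, 0.322% had one in every PRO and no DIFF library and 0.063% the reverse, and no other member showed either pattern.
At the downstream start of Rps10, 1425 bp along the gene in RefSeq, the values went the other way. Fold enrichment at the best of its annotated starts was 7.45, 8.63 and 7.39 in WT PRO and 9.03, 8.03 and 11.3 in WT DIFF. In p27KO it was 8.30 and 7.61 in PRO and 10.1 and 14.8 in DIFF. The p27KO groups did not overlap, whereas in WT the second DIFF library lay below the second PRO library.
For the test, fold enrichments were ranked among the promoters of a library and turned into normal scores, in which 1 unit is about 1 SD of all promoters, and limma compared the groups. The upstream start entered the ranking through its PRO peaks alone, and its DIFF scores are ties at the bottom. Its changes from PRO to DIFF, -0.48 in WT and -0.65 in p27KO, therefore restate the missing peaks, and no p-value is given. At the best start the change was 0.59 ± 0.19 (SE) in WT (limma, adjusted p = 0.134) and 0.93 ± 0.24 in p27KO (limma, adjusted p = 0.107). Neither passed 0.05. The size of the upstream change depends on how low an absent peak is placed.

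**Figure D1:**
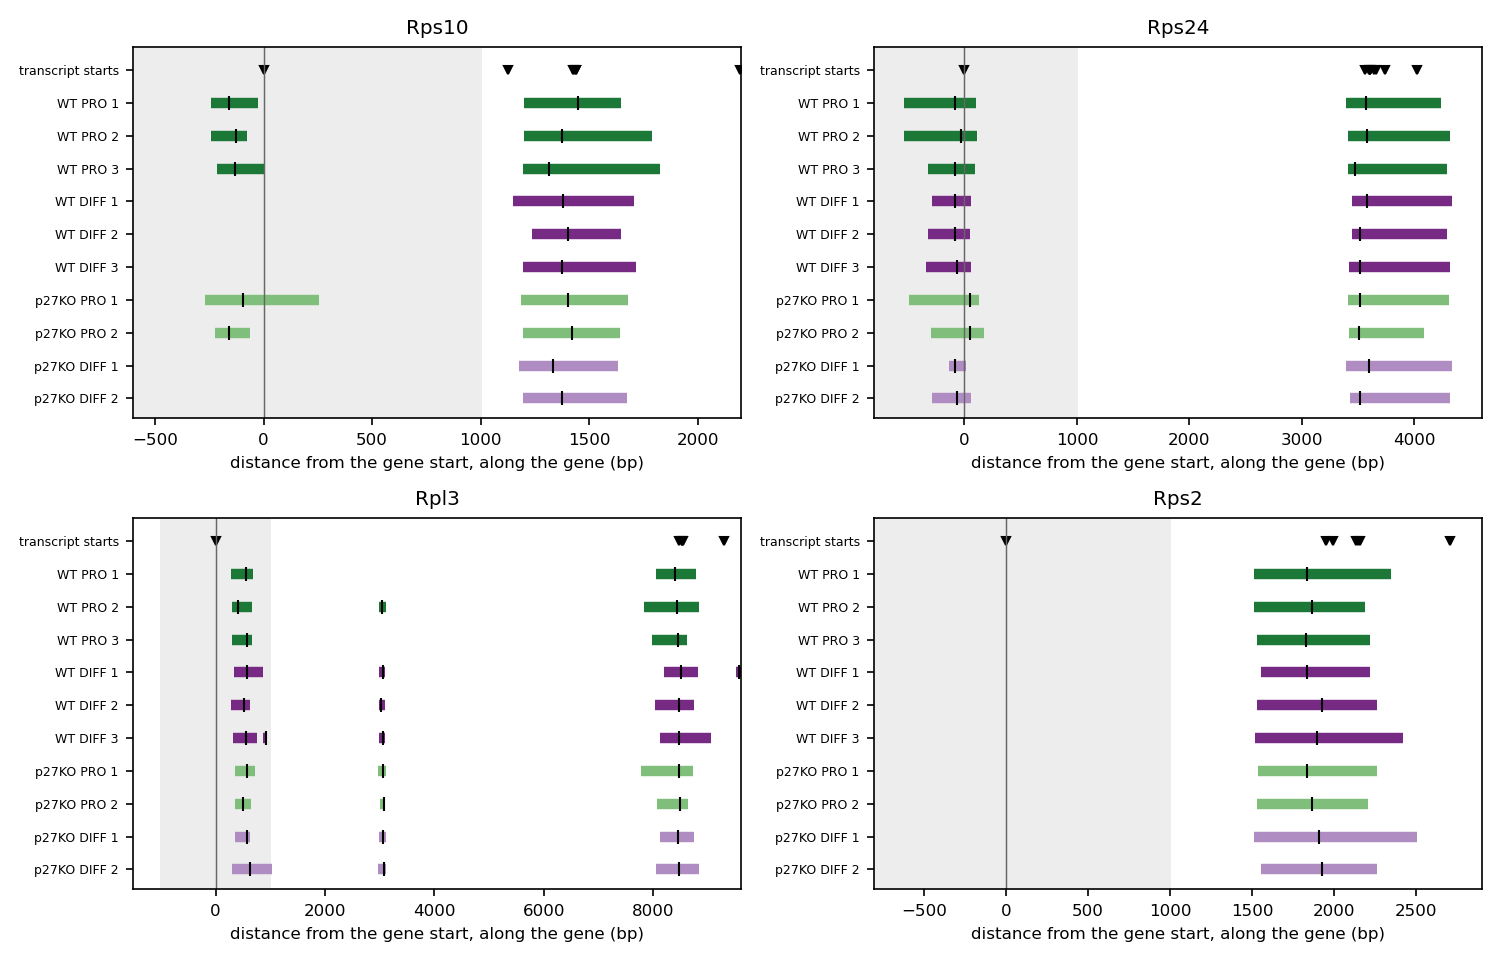
Peaks of the 10 libraries around 4 members, drawn as bars against the distance from the GENCODE gene start in bp, with a black tick at each summit, triangles for annotated transcript starts and grey for the 1 kb window on either side. Rps10 has an upstream bar in the 5 PRO rows and in none of the 5 DIFF rows, and Rps24, Rpl3 and Rps2 have a peak near a start further down the gene in all 10 rows.

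The height of member promoters was set by their percentile among all peaks of a library, from 0 for the lowest fold enrichment to 100 for the highest. The median member stood at 82.7 to 90.6 per library and the median of other promoters with a peak at 81.7 to 86.5. Below a percentile of 50 stood 2.70 to 8.11% of members and 11.2 to 14.8% of other promoters, lower for members in all 10 libraries. At 90 or above stood 28.4 to 33.8% of members and 29.8 to 35.1% of others in the PRO libraries, and 31.1 to 52.1% against 30.3 to 39.7% in the DIFF libraries. Peak widths were alike, with medians of 774.5 to 951 bp for members and 777.5 to 956 bp for others. Summits sat closer to the start in members, within 100 bp in 52 of 73 (71.2%) by their median position, against 58.9% of 11696 other promoters with a peak in all 10. The median member summit was 18.0 bp upstream of the start, and 16.0 bp upstream for others. Members were no steadier than other promoters by their spread: the within-group SD of the normal score of fold enrichment had a median of 0.240 for the 73 members and 0.240 for the other promoters with a peak in all 10.

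**Figure D2:**
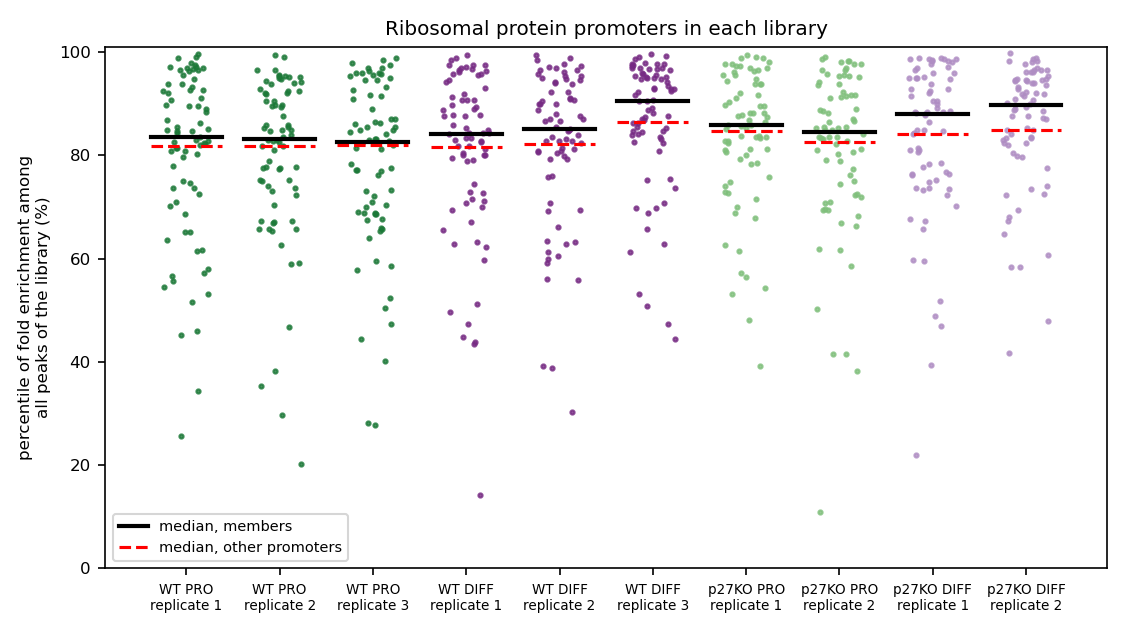
Percentile of fold enrichment, among all peaks of the library, of each ribosomal protein promoter with a peak (points, 73 to 75 per library), by library and coloured by group. Black lines are member medians, from 82.7 to 90.6, and red dashed lines the medians of other promoters, from 81.7 to 86.5.

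Among the members themselves the order was wide. The highest mean percentile over the 10 libraries belonged to Rps26, whose yeast counterpart contacts the mRNA upstream of the start codon, at 98.7 ± 0.99 (SD, n = 10). Its fold enrichment was 18.7, 18.3 and 16.4 in WT PRO, 14.2, 13.8 and 19.0 in WT DIFF, 18.7 and 17.4 in p27KO PRO and 17.2 and 22.4 in p27KO DIFF. Every library placed it at a percentile of 96.8 or higher, with a summit 84.0 to 89.0 bp upstream of the start. Rpl15 followed at 98.0 ± 1.14, then Rpl27 at 97.4 ± 1.48, Rps29 at 97.1 ± 0.74 and Rpl31 at 97.0 ± 1.93. Neighbours in this order were closer to each other than their SD. In WT PRO replicate 1 the summit of Rpl15 also lay within 1 kb of the start of Nkiras1, so that value covers both genes.

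The lowest 5 were Rps24 at 40.4 ± 11.97, Rpl3 at 42.9 ± 14.6, Rpl19 at 48.4 ± 10.0, Rpl36 at 48.9 ± 7.33 and Rpl4 at 56.2 ± 7.94. Neighbours in this order overlapped widely. For Rps24 and Rpl3 the low value belonged to the upstream start. Rps24, a small subunit protein mutated in some families with Diamond-Blackfan anaemia, had fold enrichments of 3.78 to 6.44 there and 7.45 to 12.3 at the best of its starts, the RefSeq ones lying 3553 and 3628 bp downstream. Rpl3, which reaches towards the peptidyl transferase centre, had 3.18 to 7.32 near the gene start and 6.90 to 13.1 at its best start. In WT PRO replicate 1 the upstream summit of Rps24 also lay within 1 kb of the start of Polr3a. That of Rpl3 lay within 1 kb of the start of Syngr1 there, so neither can be assigned to 1 gene. The best start put Rps24 at a mean percentile of 76.8 and Rpl3 at 78.9. Rpl19, Rpl36 and Rpl4 kept their values at any start, so they were the lowest members when every start was allowed. The peak of Rpl4 was not 1 site. Its summit lay 451 to 520 bp upstream in WT PRO, WT DIFF replicate 3 and p27KO PRO replicate 2, and 22 to 56 bp downstream in the rest. In WT PRO replicate 1 it was also within 1 kb of the start of Zwilch, so the value cannot be assigned to Rpl4 alone.
The fold enrichment of Rpl36 ran from 4.55 to 6.48 and its gene has 1 annotated start. Rpl19 ran from 4.11 to 6.96 and Rpl4 from 4.87 to 8.58. All 3 genes stayed far below Rps26 in each of the 10 libraries.
Fold enrichment is a ratio to the local background, and the count at the summit gave another order in places. Rpl36 had 47 to 105 fragments at its summit, Rpl27 75 to 158 and Rpl4 19 to 38.

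**Figure D3:**
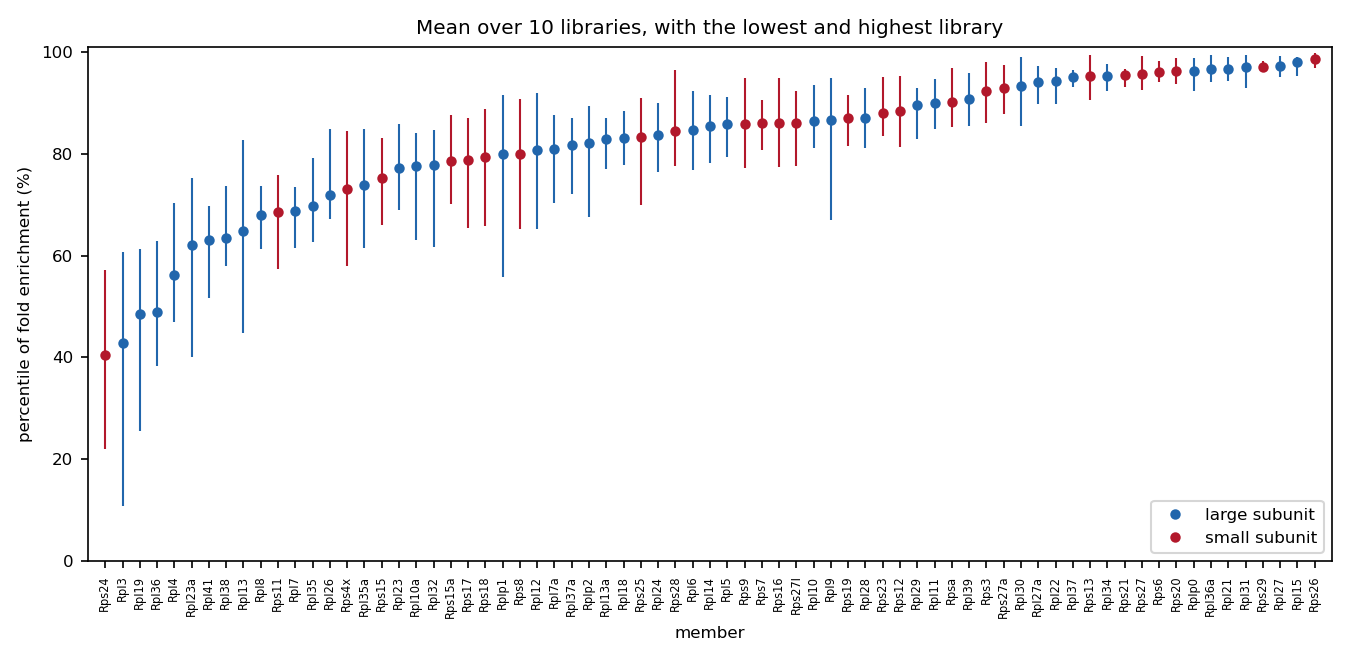
Mean percentile of fold enrichment over 10 libraries (points) with the lowest and highest library (lines) for the members with a peak in all 10 that are reported here, coloured by subunit. The order runs from Rps24 at 40.4 to Rps26 at 98.7, and lines of neighbours overlap.

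The subunits overlapped across this range. The median member of the large subunit had a mean percentile of 83.2, a fold enrichment of 10.7 and a width of 849 bp, and that of the small subunit 86.6, 11.6 and 907 bp. The stalk proteins, which bind elongation factors, differed among themselves, with mean percentiles of 96.3 for Rplp0, 79.9 for Rplp1 and 82.2 for Rplp2. Rplp1 was also among the less steady ones, with fold enrichments from 5.61 in WT DIFF replicate 2 to 13.9 in p27KO PRO replicate 1. Rpsa, the small subunit protein that also serves as a laminin receptor, had a mean percentile of 90.1. Of the 4 members on chromosome X, Rpl36a had a mean percentile of 96.7, Rpl39 90.8, Rpl10 86.5 and Rps4x 73.1. The fold enrichment of Rps4x was 6.65, 9.07 and 6.35 in WT PRO and 9.82 and 10.8 in p27KO PRO, and in DIFF 7.34, 6.71 and 10.8 in WT and 9.94 and 10.3 in p27KO. Its PRO groups did not overlap and its DIFF groups did. Genotype cannot be told apart there from the difference in Y-linked peaks given above.

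Width followed another order than height. Rpl7 of the large subunit had the widest peak of the 73 members with one in all 10, 1602 to 2363 bp with a mean of 1814 bp, but a mean percentile of only 68.8. Rpl34 averaged 1341 bp and Rps29 1219 bp, at mean percentiles of 95.3 and 97.1. The narrowest among members with a peak in all 10 were Rpl3 at 414 bp, Rps24 at 440 bp, both at their upstream starts, and Rpl41 at 471 bp. Rplp0 was very even, from 662 to 711 bp over all 10 libraries. Shared promoters were looked up in WT PRO replicate 1 alone, where all 75 members with a peak in any library had one. There 16 had a summit that also lay within 1 kb of another protein-coding gene's start. Among them were Rpl12 with Lrsam1, Rpl7 with Rdh10, Rpl9 with Lias and Rps27 with Rab13. Values of such pairs are not separable, and sharing in the other libraries was not examined.

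The first comparison asked whether these housekeeping promoters moved at the onset of differentiation in WT cells. Most of them stood slightly higher in the ranking in DIFF, and no single one passed the test. The change in normal score was above 0 for 57 of the 74 members tested (77.0%), with a median of 0.16, while over all 13174 promoters tested 52.9% were above 0 with a median of 0.02. limma called 0 members and 1.21% of all promoters at an adjusted p under 0.05. At an unadjusted p under 0.05 it counted 11 members (14.9%), 10 of them higher, against 17.1% of all promoters, so single members passed no more often than promoters in general. All 3 DIFF libraries lay above all 3 PRO libraries for 14 members (18.9%), against 11.7% of all promoters, and below them for Rps10 alone (1.35%), against 10.2%. Rps10 is counted there only through its absent DIFF peaks.
The largest changes above 0 were at Rpl30, Rpl12 and Rps16. Rpl12, part of the stalk base, was 7.58, 9.95 and 9.13 in WT PRO and 9.43, 9.05 and 13.2 in WT DIFF as fold enrichment. As percentiles, which take out the scale of each list, the values were 65.2, 77.8 and 77.2 against 82.9, 81.5 and 91.7, without overlap. Its change was 0.57 ± 0.20 (limma, adjusted p = 0.171), and 0.66 with an adjusted p of 0.0308 when promoters were ranked by the deposited -log10 p-value. Rpl30 had a change of 0.61 ± 0.28 (limma, adjusted p = 0.286) and Rps16 one of 0.52 ± 0.19 (limma, adjusted p = 0.188). Without WT DIFF replicate 2 the change of Rpl30 was 0.22. Rpl30 went from percentiles of 85.5, 91.9 and 91.5 to 91.9, 98.9 and 94.9. Rps16 went from 83.02, 77.3 and 84.2 to 83.4, 90.9 and 94.9, so the groups overlapped slightly among all peaks although not among promoters.
The largest changes below 0 besides Rps10 were Rps26 with -0.60 ± 0.30 (limma, adjusted p = 0.336) and Rpl9 with -0.35 ± 0.29 (limma, adjusted p = 0.574). Leaving out WT DIFF replicate 3 took Rps26 to -0.91 and Rpl9 to -0.56. With each library left out in turn, Rps26 ran from -0.91 to -0.42. Rpl9 was -0.53 without WT PRO replicate 3, -0.068 without WT DIFF replicate 1 and -0.047 without WT PRO replicate 1. Rps26 stood at 99.7, 99.5 and 98.6 in WT PRO and at 97.5, 96.8 and 99.6 in WT DIFF, so DIFF replicate 3 was as high as PRO. Rpl9 was spread over 67.0 to 92.6 in WT DIFF around PRO values of 83.2 to 94.9, so the groups overlapped.

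In p27KO cells the same comparison gave values above 0 for 45 of 74 members (60.8%), with a median of 0.12, against 52.4% and 0.02 over all promoters. No member was called, against 0.228% of all promoters, and 10 members (13.5%) had an unadjusted p under 0.05, 8 of them higher, against 11.5%. Both DIFF libraries lay above both PRO libraries for 27 members (36.5%), against 23.8% of all, and below them for 8 (10.8%), against 20.7%. Rps10 is among those 8 only through its absent DIFF peaks.
Rpsa had the largest change, 0.83 ± 0.24 (limma, adjusted p = 0.208), from fold enrichments of 11.7 and 11.5 in PRO to 13.3 and 17.5 in DIFF. Rpl12 followed with 0.82 ± 0.24 (limma, adjusted p = 0.219), from 10.5 and 7.93 to 11.8 and 14.8. Rpl12 was among the 3 largest positive changes of both genotypes. The change furthest below 0 was at Rps27, -0.75 ± 0.32 (limma, adjusted p = 0.394), from 19.2 and 16.0 in PRO to 13.4 and 16.9 in DIFF. As fold enrichment the groups overlapped, while as percentiles the values were 99.1 and 96.6 against 92.8 and 96.1. Rps6, the small subunit protein phosphorylated by S6 kinase, had a change of -0.41, with percentiles of 98.2 and 95.4 to 94.8 and 94.9. Without p27KO PRO replicate 1 the changes were -0.40 for Rps27 and -0.18 for Rps6, and without p27KO PRO replicate 2 they were -1.10 and -0.63.

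**Figure D4:**
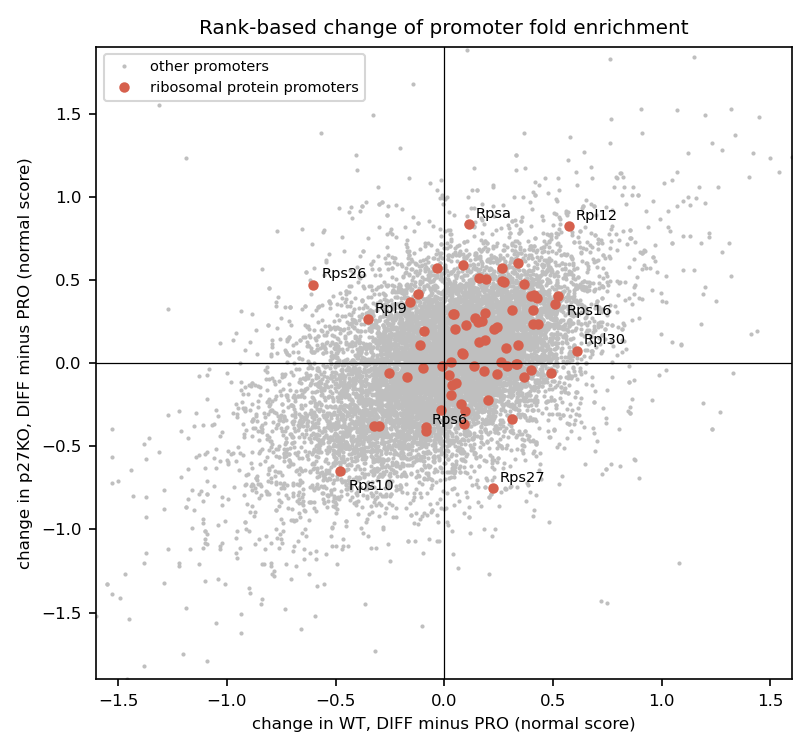
Change in the normal score of fold enrichment from PRO to DIFF, in WT on the x axis and in p27KO on the y axis, for 74 ribosomal protein promoters (red) and all other tested promoters (grey, 30 of 13174 lie outside the axes). Members lie mostly to the right of 0 in WT, 57 of 74, and above 0 in p27KO, 45 of 74, inside the grey cloud.

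Set against other promoters within each library, the shift was seen in all DIFF libraries. The median percentile of members exceeded that of other promoters by 1.68, 1.34 and 0.59 points in WT PRO and by 1.17 and 2.02 points in p27KO PRO. In WT DIFF it was 2.52, 2.81 and 4.07 points and in p27KO DIFF 3.92 and 4.77 points. Every DIFF value was above every PRO value. With the percentile of the -log10 p-value the ranges were -0.09 to 1.14 points in PRO and 2.11 to 3.97 in DIFF, again without overlap. The median width of members minus that of other promoters was -52 to -8 bp in PRO and -3 to 93 bp in DIFF. The PRO lists held 76372 to 91801 peaks and the DIFF lists 57534 to 88738, and the part of depth in these values was not tested. The ranges stayed apart with any annotated transcript start, at 0.12 to 1.35 against 2.40 to 4.82 points, and with the 57000 strongest peaks of each list, at -0.56 to 1.74 against 2.49 to 5.20. These are medians over 1 list of genes in 10 libraries, a description with no test.
None of the 4 other lists of basic machinery showed this separation in any of the 3 measures. For mitochondrial ribosomal protein genes the percentile of fold enrichment exceeded that of other promoters by 2.76 to 4.77 points in PRO and 1.48 to 4.81 in DIFF. Translation factor genes gave -1.01 to 4.78 and 1.07 to 2.71, ribosome biogenesis genes 3.63 to 7.71 and 4.09 to 7.21, and proteasome genes 4.94 to 8.01 and 5.83 to 7.05. In the test in WT, 35 of 75 mitochondrial ribosomal protein promoters (46.7%), 21 of 39 translation factor promoters (53.8%), 20 of 39 ribosome biogenesis promoters (51.3%) and 16 of 30 proteasome promoters (53.3%) had a change above 0. In p27KO the shares were 56.0, 64.1, 64.1 and 60%, close to the 60.8% of the cytosolic ribosomal proteins.
The median fold enrichment of members was 10.8 ± 0.47 in WT PRO (SD, n = 3) and 10.8 ± 1.72 in WT DIFF, and 11.6 ± 0.41 in p27KO PRO (n = 2) and 12.8 ± 1.55 in p27KO DIFF. Other promoters had 10.5 ± 0.36, 9.95 ± 1.26, 11.1 ± 0.53 and 11.5 ± 1.18 in the same order. The spread within DIFF groups exceeded the difference between the conditions in WT.

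**Figure D5:**
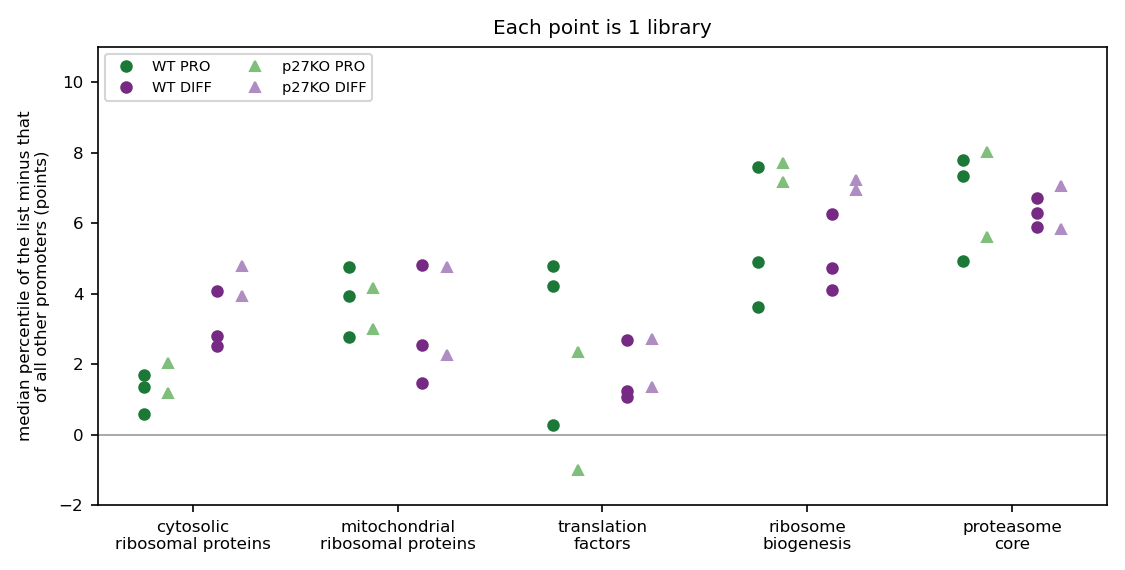
Median percentile of fold enrichment of 5 gene lists minus that of all other promoters with a peak, in percentile points, 1 point per library, with PRO in green and DIFF in purple, WT as circles and p27KO as triangles. For cytosolic ribosomal proteins PRO libraries lie at 0.59 to 2.02 and DIFF libraries at 2.52 to 4.77, and in the other 4 lists the conditions overlap.

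Peak width leaned the same way. From PRO to DIFF in WT the normal score of width was above 0 for 62 of 74 members (83.8%), with a median of 0.26, against 56.9% and 0.06 over all promoters. limma called 0 members against 0.372% of all promoters, and at an unadjusted p under 0.05 it counted 14 members (18.9%), all wider, against 12.1%. All 3 DIFF libraries were wider than all 3 PRO libraries in rank for 18 members (24.3%), against 10.4%, and narrower for Rps10 alone (1.35%), against 7.06%. Absent DIFF peaks alone put Rps10 there. The lowest adjusted p in WT was 0.181, at Rps15, with a change of 0.60 ± 0.15 (limma). In p27KO 56 of 74 (75.7%) were above 0, with a median of 0.22, against 53.6% and 0.03. There limma called 0 members against 0.0835% of all, and 8 members (10.8%) had an unadjusted p under 0.05, 7 of them wider, against 8.02%. Both DIFF libraries were wider for 33 members (44.6%), against 23.5%, and narrower for 5 (6.76%), against 17.9%, with Rps10 among the 5 through its absent peaks. Rps15 was named after its values were seen.

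The comparison of genotypes asked whether loss of p27 changed these promoters. In PRO cells p27KO minus WT had a median of 0.05 over members and 0.01 over all promoters, and 45 of 74 members (60.8%) were above 0, against 51.2% of all promoters. limma called 0 members against 0.038% of all promoters, and 2 members (2.70%) had an unadjusted p under 0.05, against 5.5%. These were Rpl32, with -0.61 ± 0.19 (limma, adjusted p = 0.793), and Rps4x on chromosome X, with 0.58 ± 0.22 (limma, adjusted p = 0.868). In DIFF cells the median was 0.02 over members and -0.0015 over all promoters, with 39 of 74 (52.7%) above 0 against 49.7% of all. There 0 members were called against 0.038% of all, and 5 (6.76%) against 4.53% had an unadjusted p under 0.05. Whether the change from PRO to DIFF differed between genotypes was tested as an interaction, where limma called 0 members and 0.0% of all promoters. At an unadjusted p under 0.05 it counted 4 members (5.41%) against 3.98% of all. The largest of these differences was at Rps26, 1.08 ± 0.48 (limma, adjusted p = 0.999), which had a change of -0.60 in WT and 0.47 in p27KO. With 2 p27KO libraries per condition, a p that misses the threshold does not show that the genotypes were alike.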

How the data were processed

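ATAC-seq peak lists of 10 libraries were used. The authors trimmed reads (Cutadapt, Trimmomatic), mapped them to GRCm38 (Bowtie2), marked duplicates (Picard) and called narrow peaks in each library with MACS2 (no model, false discovery rate 0.05). Versions and read shift are not given in the sources used here. In the deposited lists, fold enrichment is a ratio of summit pileup to local background, and the authors' −log10 p-value and −log10 q-value stand beside it. Positions (bp) are deposited by the authors on GRCm38.

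For each protein-coding gene (GENCODE M21) the peak of highest fold enrichment with its summit within 1 kb of the gene start was taken. Promoters that had a peak in 5 or more libraries entered a ranking within each library, absent peaks tied at the bottom, and normal scores were fitted with limma 3.58.1 (R 4.3.3), with 1 mean per group and Benjamini-Hochberg adjustment over 13174 promoters. The fit was tested on simulated data. Summit pileups were solved from fold enrichment and p-value to within 0.01 on the −log10 scale. Members, gene lists and tests were chosen with earlier results of these data known.

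Named genes were those missing a peak, the 5 highest and 5 lowest by mean percentile, the 3 widest and narrowest, the 3 largest rises and falls per genotype, called members, Rplp0, Rplp1, Rplp2, Rpsa, chromosome X members and those at the 1 kb limit. A few results that fall under this rule are not reported here. Of the marker lists fixed for other cell types, endothelial, ependymal, and fibroblast and mural markers had a peak in all 10 libraries for 2 of 8, 2 of 6 and 3 of 8 genes.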

Additional observations from a re-analysis of the deposited data

How the results depend on the processing

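Of 288 repeats of the 13 main results under other settings, 277 were counted as unchanged. For calls, median changes and percentiles this meant the same call or a value within the spread between replicates. For the number of members with a peak in all 10 libraries it meant only a similar count. The 15 repeats of that number, from 70 to 77, all passed this loose rule. The count of members called in WT went from 0 to 1 when ranking by −log10 p (Rpl12) and when ranking among all peaks of a list (Rps10), and in p27KO and for width in both genotypes to 1 in the latter setting, where absent peaks are placed lower by construction. That setting also took the median width change of members to 0.11 in WT and 0.039 in p27KO. Leaving out each library in turn gave 0 members called throughout, a median change in fold enrichment of 0.12 to 0.21 in WT and 0.082 to 0.18 in p27KO, a median change in width of 0.20 to 0.33 in WT and 0.19 to 0.23 in p27KO, 73 members with a peak in all remaining libraries and a median percentile of 85.0 to 85.9. The p27KO median reached 0.18 without p27KO PRO replicate 2, against 0.12 with it. With the 57000 strongest peaks of each list the median percentile was 81.2, since shorter lists drop weak peaks. At any annotated transcript start the change of Rps10 turned to 0.59 in WT and 0.93 in p27KO. Over all promoters the calls ranged from 39 to 353 around 159 in WT and from 2 to 123 around 30 in p27KO for fold enrichment, and from 9 to 120 around 49 and 2 to 65 around 11 for width. For the interaction they ranged from 0 to 9 around 0, and for p27KO against WT from 0 to 11 around 5 in PRO and 0 to 18 around 5 in DIFF. The cause of these differences was not tested.

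The deviations of same-numbered WT PRO and WT DIFF libraries correlated at 0.02, -0.04 and -0.13, so replicate number was not used as a block in the main fit. So few values cannot exclude a shared animal or culture, which the labels do not settle. With the replicate number as a block, 0 members were called in every contrast, the median changes of members were the same, and calls over all promoters were 99 in WT and 19 in p27KO for fold enrichment and 19 and 8 for width. In p27KO the same-numbered libraries correlated at -0.10 and the crossed ones at 0.10, values that mirror each other when a group holds 2 libraries. A crossed block was added after seeing the data, which gave 138, 20, 21 and 7 calls and 0 members.

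No read totals stood behind the lists, so a missing peak, as at the upstream start of Rps10, is limited by the depth of that library. WT DIFF replicate 3 differed in list length from its group. With 2 p27KO libraries per condition, intervals are wide.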
